A study of Gallus gallus with 4 samples.

Results

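TCRγ/δ+ T-cells of hen blood that expressed the cytokine gene KK34 were compared with TCRγ/δ+ T-cells in which KK34 was not seen. A cell was taken as TCRγ/δ+ where its TARP value was at least 1, the sum of KCNQ1, SOX13 and PTPN14 was at least 4, CD247 was at least 1 and PAX5 plus EBF1 was below 3. This gate held 1784 of the 12042 cells of libraries 1 to 3. Of these, 519 cells had a KK34 value of 2 or more and are called KK34-expressing (151, 145 and 223 cells in libraries 1, 2 and 3), and 854 cells had a KK34 value of 0 and are called KK34-negative (333, 254 and 267 cells). The 411 cells with a value of 1 belonged to neither group and are described separately. Both groups were therefore chosen by a measured value, and KK34 and the genes of the gate are described but not tested.

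All cells came from clinically healthy laying hens 24 weeks old, labelled as the hybrid Bovans Robust, with no treatment, genetic change or control group. The study's text names another hybrid. Leukocytes were isolated on Ficoll, thrombocytes were depleted with an antibody to CD41/61, and 10x Genomics 3′ libraries were made, 1 per hen. The files hold 4 libraries, but library 4 shared 4890 of its 4894 barcodes with library 3, and the summed absolute difference between their values was 0.682% of the total. It was left out, so n is 3 libraries. The other pairs of libraries shared 1 to 9 barcodes. There were 4452, 2697 and 4893 cells in libraries 1 to 3, whose totals per cell had medians from 2318.5 to 2448. A value is a depth-corrected, whole-number score in place of a raw UMI count. The level of a gene below is its summed score in a group of cells of 1 library, per 10000 summed over all genes.

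T-cells with a γ/δ receptor are abundant in chicken blood. KK34 encodes a chicken cytokine related to interleukin 5 and known from γ/δ T-cells. In mammals the transcription factors GATA3 and MAF and the interleukin 33 receptor IL1RL1 belong to the type 2 programme, in which T-cells make interleukins 4, 5 and 13. Ribosomal protein and translation factor genes are the protein-making part of the transcriptome, and their messages rise when resting lymphocytes start to grow.

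KK34 lies on chromosome 13 of GRCg7b (chr13:16332511-16334477, 1967 bases), after IL3 and CSF2 and before P4HA2 in the RefSeq gene table. A KK34 value of 1 or more was seen in 52.1% of the gated cells, against 0.823% of B-cells and 0.168% of monocytes, and a value of 2 or more in 29.1%, 0.0484% and 0.0841%. The median totals of these cells were 2527, 2421 and 2391, but the depth correction sets these totals and they do not give the sequencing depth. The B-cells had PAX5 plus EBF1 of 3 or more, the monocytes MMR1L4 and LY86 of 1 or more, and both had TARP and CD247 of 0. This choice can leave out cells that hold stray T-cell RNA, so the shares may be low in part by rule. They serve as a background only within that limit, and whether they came from free RNA was not tested. Of all 700 cells with a value of 2 or more, 181 lay outside the gate, of which 134 had a TARP value of at least 1 and 3 carried the B-cell genes. The KK34-expressing share of the gated cells was 24.0, 27.8 and 35.2% in the 3 libraries, with exact 95% intervals (Clopper-Pearson, counting error only) of 20.7 to 27.5%, 24.0 to 31.8% and 31.5 to 39.1%.

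Among the 519 expressing cells, 252 had a KK34 value of 2, just inside the limit, 142 had 3, and 125 had 4 or more, with the highest cell at 13. Their KK34 level was 11.6, 11.3 and 12.2 in the libraries and 0 in the negative cells, as the rule fixes. The genes of the gate were carried by both groups. TARP, the T-cell receptor γ-chain, lay at 19.7, 21.1 and 19.7 in the expressing and 16.1, 18.7 and 18.0 in the negative cells. The δ-chain gene LOC121110951, chosen after its values were seen, lay at 3.13, 5.67 and 3.78 against 5.16, 6.46 and 3.96 (limma adjusted p = 0.144), and the groups overlapped. SOX13, a transcription factor of γ/δ T-cells in mice, lay between 9.04 and 9.68 against 8.60 and 9.91. The potassium channel gene KCNQ1 lay at 22.8, 39.2 and 25.1 against 27.7, 43.7 and 39.4. The gate required TARP, and SOX13 and KCNQ1 only within a sum, so their levels in both groups follow in part from the rule. The δ-chain gene, which the gate did not use, was seen in 31.8% of expressing and 29.98% of negative cells.

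MAF and IL1RL1, which the comparison had been proposed to mark, did not separate the groups by level. MAF lay at 16.5, 13.7 and 16.1 in the expressing and 13.6, 13.9 and 16.7 in the negative cells. The groups overlapped, and the log2 fold change was 0.07 (standard error 0.12, 95% interval -0.16 to 0.30, limma adjusted p = 0.753, higher in 1 of 3 libraries). The annotated span of MAF overlaps that of WWOX. IL1RL1 was low, at 0.838, 1.27 and 1.22 against 0.786, 1.28 and 0.935, with a log2 fold change of 0.14 (standard error 0.18, interval -0.23 to 0.51, adjusted p = 0.674). Within the gate, MAF was seen in 91.1% of expressing and 78.2% of negative cells, and IL1RL1 in 22.5% and 16.3%. More genes were detected in expressing cells, and these shares were not adjusted for that. Both genes were seen more often inside the gate than outside it. MAF was seen in 84.6% of gated cells, in 10.6% of all cells outside the gate and in 0.484% of B-cells. IL1RL1 was seen in 18.7%, 1.501% and 0.145%. These B-cells were again those chosen with TARP and CD247 of 0. GATA3, which directs type 2 differentiation and was chosen after its values were seen, lay at 12.03, 12.4 and 12.5 in the expressing and 10.9, 11.7 and 9.36 in the negative cells. Its groups did not overlap, but the log2 fold change of 0.22 did not pass (standard error 0.12, interval -0.03 to 0.46, adjusted p = 0.254). These p-values do not show that the groups were equal, and the intervals give the largest changes the data allow.

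**Figure D1:**
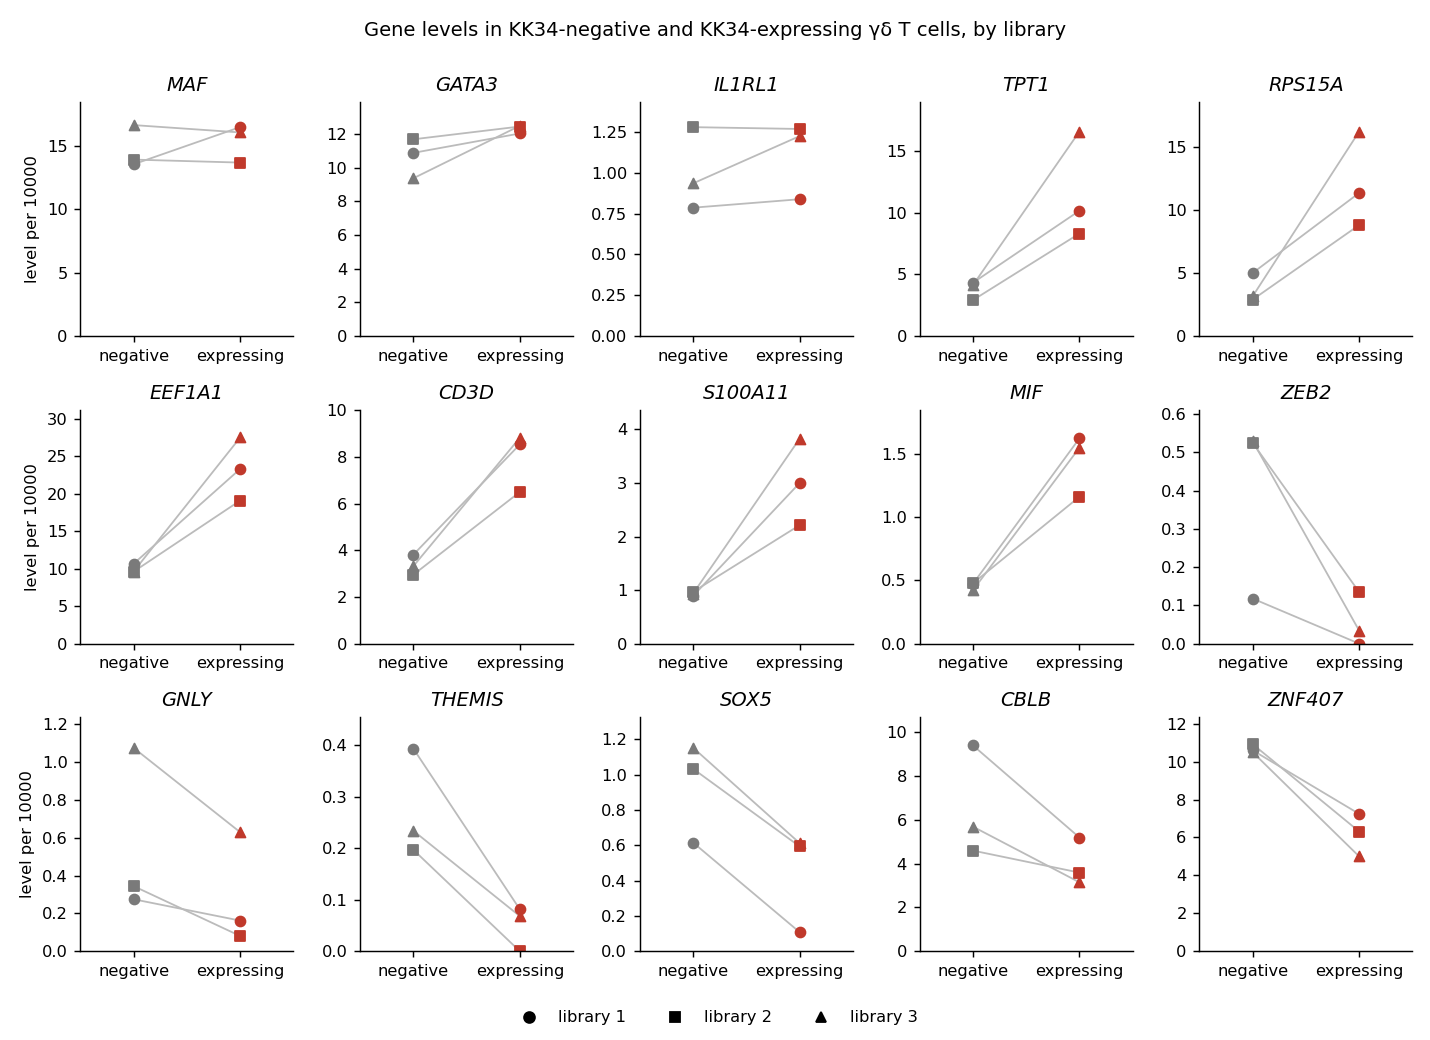
Level per 10000 summed scores (y axis, from 0) of 15 genes in the KK34-negative (grey) and KK34-expressing (red) cells of libraries 1 to 3 (shapes), with a line joining the 2 groups of a library. MAF, GATA3 and IL1RL1 differ little, TPT1, RPS15A, EEF1A1, CD3D, S100A11 and MIF are higher in the expressing cells of every library, and ZEB2, GNLY, THEMIS, SOX5, CBLB and ZNF407 are lower in every library.

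Most of the rest of the type 2 list did not pass either. Of its 26 listed genes, 17 were in the files and 15 could be tested. Only ID2, an inhibitor of E-protein transcription factors, passed, at 4.24, 3.48 and 4.01 in the expressing and 2.65, 1.43 and 3.04 in the negative cells (log2 fold change 0.76, standard error 0.16, adjusted p = 0.000669). Over all genes tested 8.76% were called higher and 2.46% lower. The median log2 fold change of the 15 was -0.01, against 0.14 for all genes tested. The type 2 interleukins themselves were not analysed here. Among the neighbours of KK34 on chromosome 13, RAPGEF6 had a log2 fold change of -0.11, FNIP1 of -0.02, P4HA2 of 0.03 and SLC22A5 of 0.20, and none passed (adjusted p from 0.694 to 0.956). Of 9 tested genes of the wider region list, UQCRQ alone passed. In the interleukin 17 list, 0 of 7 genes passed in the limma test and 0 had an unadjusted p under 0.05, with RORA at a log2 fold change of -0.18 and BLK, a kinase used by γ/δ T-cells in mice, at -0.16.

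Across all genes, the 2 groups differed widely. In the limma model with the library as block, 824 of 9409 genes were higher in KK34-expressing cells (8.76% called) and 231 were lower (2.46% called), and 2415 had an unadjusted p under 0.05. The counts were 437 higher and 55 lower without library 1, 716 higher and 237 lower without library 2 and 300 higher and 66 lower without library 3. Of the calls of named genes, 23 were lost without library 1 (adjusted p from 0.0690 to 0.466), 9 without library 2 (0.0555 to 0.397) and 17 without library 3 (0.0533 to 0.290). Those lost without either of 2 libraries included GNLY, MTMR12, CD40LG, CD79B, CYP2R1, GRM8, INPP5A, PIM1, FOXO1, FOXP1, S1PR4, FRMD8 and J6367-mgp11, and the IFNAR1 call was lost without each of the 3. Without the block 397 genes were higher and 17 lower. The split of the calls depended on the scaling. Scaled by the median of ratios instead of the total, 473 genes were higher and 729 lower, that is 39.4% higher in place of 78.1%. Log2 fold changes were then smaller by a median of 0.16.

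Ribosomal protein genes rose as a block. Of 69 tested, 68 were higher and 0 lower, beside 8.76% and 2.46% over all genes, with a median log2 fold change of 1.25. RPS15A, of the small ribosomal subunit, stood at 11.4, 8.82 and 16.3 in the expressing and 5.004, 2.89 and 3.15 in the negative cells, which did not overlap (log2 fold change 1.69, standard error 0.15, adjusted p = 2.6e-11). RPL31, RPL27A and RPL9 of the large subunit followed with 1.66, 1.62 and 1.57. Together the ribosomal protein genes held 639, 485 and 771 per 10000 in the expressing and 294, 237 and 240 in the negative cells, so library 2 was lowest among the expressing and library 3 highest. Scaled by the median of ratios, all 68 were still called higher.

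Genes of a list drawn up for translation factors rose with them, 21 of 26 tested being higher and 0 lower, with a median of 0.88. The shares over all genes were 8.76% higher and 2.46% lower. TPT1, the translationally controlled tumour protein, had 10.2, 8.31 and 16.6 against 4.31, 2.90 and 4.11 (log2 fold change 1.56, standard error 0.14, adjusted p = 2.6e-11) and was seen in 83.2% of expressing and 42.7% of negative cells. EEF1A1, which brings charged tRNA to the ribosome, had 23.3, 19.1 and 27.5 against 10.7, 9.61 and 9.63, a log2 fold change of 1.20 (standard error 0.12, adjusted p = 3.29e-10). Its exchange factor subunits EEF1B2 and EEF1D rose by 1.37 and 1.30, and the ribosome-bound scaffold RACK1 by 1.24. The cyclophilin PPIA, which the study names for proliferating cells, was counted in this list and rose by 1.17.

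Nuclear genes of oxidative phosphorylation also rose, 24 of 38 tested being higher and 0 lower, with a median of 0.87. For this list and the mitochondrial genes below, the shares over all genes were 8.76% higher and 2.46% lower. Their summed level was 23.5, 21.3 and 30.5 in the expressing and 12.8, 11.4 and 11.95 in the negative cells. NDUFB10, a complex I subunit, went from 0.197, 0.115 and 0.203 to 0.486, 0.675 and 0.748 (log2 fold change 1.44, standard error 0.25, adjusted p = 5.56e-05). UQCRQ of complex III and COX5A and COX6C of complex IV rose by 1.38, 1.27 and 1.22. The genes encoded in the mitochondrion itself went the other way. Of 13 mitochondrial protein genes tested, 7 were lower and 0 higher, with a median of -0.34, and of all 22 mitochondrial genes tested, 9 were lower. The transcript listed as J6367-mgp07 lay at 73.7, 75.3 and 67.9 in the expressing and 94.5, 111 and 94.5 in the negative cells (log2 fold change -0.46, standard error 0.10, adjusted p = 0.001).

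Beyond these groups, the largest rise was that of LOC107053353, a gene on chromosome 5 with no name in the files, with 0.784, 1.56 and 1.46 against 0.301, 0.361 and 0.265 (log2 fold change 1.70, standard error 0.22, adjusted p = 1.17e-07). LDHB, a lactate dehydrogenase subunit, had 0.540, 0.675 and 0.765 against 0.210, 0.0984 and 0.171 (log2 fold change 1.56, standard error 0.25, adjusted p = 1.54e-05). It was seen in 16.0% of expressing and 3.28% of negative cells. S100A11, a calcium-binding protein, had 3.00, 2.21 and 3.83 against 0.891, 0.968 and 0.935 (log2 fold change 1.56, standard error 0.17, adjusted p = 4.55e-09). MIF, the macrophage migration inhibitory factor, had 1.62, 1.16 and 1.55 against 0.472, 0.476 and 0.421 (log2 fold change 1.46, standard error 0.20, adjusted p = 4.42e-07). The groups overlapped for none of these 4 genes, which were chosen by the size of their rise. GATA3, IL7R and CD8A, which did not pass, did not overlap either, and the share of all genes without overlap is not given here. LOC770612, annotated by the study as IFITM1, an interferon-induced membrane protein, rose by 1.44, HSBP1, which binds heat shock factor, by 1.40, CCDC107 by 1.38 and GATD3AL1 by 1.35. ACTB, the cytoskeletal β-actin, was chosen after its values were seen and had 17.9, 15.7 and 18.4 against 8.14, 6.35 and 7.06 (log2 fold change 1.26).

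Genes of T-cell receptor signalling were divided, 4 of 32 tested being higher and 5 lower, with a median of -0.21, beside 8.76% higher and 2.46% lower over all genes. The invariant chain CD3D had 8.54, 6.50 and 8.83 in the expressing and 3.81, 2.95 and 3.32 in the negative cells (log2 fold change 1.21, standard error 0.13, adjusted p = 4.26e-09). CD3E rose by 0.92 (adjusted p = 8.47e-06). Lower were CBLB, a ubiquitin ligase that restrains T-cell activation, THEMIS, which tunes receptor signals, the co-receptor CD226 and the kinase PRKCH. CBLB had 5.19, 3.59 and 3.15 against 9.39, 4.59 and 5.69 (log2 fold change -0.68, standard error 0.14, adjusted p = 0.000651), and the groups overlapped. THEMIS had 0.0811, 0 and 0.0680 against 0.393, 0.197 and 0.234 (log2 fold change -1.33, standard error 0.28, adjusted p = 0.000937), and these did not overlap. CD226 and PRKCH fell by 1.30 and 1.12 on the log2 scale from levels below 0.6, and the CD226 groups overlapped.

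Activation-induced genes showed 5 of 35 higher and 1 lower, with a median of 0.14, the same as all genes, of which 8.76% were higher and 2.46% lower. This list therefore stood near the background. JUN of the AP-1 complex had 5.95, 4.88 and 6.65 against 3.04, 3.30 and 3.61 (log2 fold change 0.79, standard error 0.14, adjusted p = 7.44e-05). IER5 and JUND, both immediate early genes, rose by 0.73 and 0.55, the helper ligand CD40LG by 0.92 and the kinase PIM1 by 0.66. NFKB1 was lower, at 11.5, 8.04 and 11.5 against 16.9, 11.5 and 16.5 (log2 fold change -0.53, limma adjusted p = 0.00166). The groups overlapped for IER5, JUND and NFKB1. Of 18 genes of resting and homing T-cells, KLF2, a factor of quiescence and tissue exit, rose by 0.70 (adjusted p = 0.00419), whereas FOXO1 and FOXP1, which also hold T-cells at rest, fell by 0.36 and 0.34. Among 27 cytokine receptors, 1 was higher and 1 lower, a share below the 8.76% of all genes for the first. IL2RG, the shared γ-chain of the interleukin 2 family, rose, with 2.78, 2.43 and 3.21 against 1.86, 0.820 and 1.40 (log2 fold change 1.05, standard error 0.17, adjusted p = 1.79e-05), and IFNAR1, a type I interferon receptor chain, fell by 0.67. Of 11 chemokine and chemokine receptor list genes, the sphingosine phosphate receptor S1PR4 alone passed (log2 fold change 0.79, adjusted p = 0.0197). Among transcription factors of T-cell lineages, ID2 and KLF2 were among those higher, and ZEB2, FOXO1 and FOXP1 were lower.

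Among cytolytic genes, 2 of 6 tested were lower and 0 higher, where 2.46% of all genes were lower. ZEB2, a transcription factor of cytolytic differentiation in mice, had 0, 0.135 and 0.0340 in the expressing and 0.118, 0.525 and 0.530 in the negative cells (log2 fold change -1.59, standard error 0.28, adjusted p = 0.000101). GNLY, a granule protein that lyses target membranes, had 0.162, 0.0809 and 0.629 against 0.275, 0.344 and 1.08 (log2 fold change -0.83, standard error 0.25, adjusted p = 0.0233). The groups overlapped for both ZEB2 and GNLY, and for GNLY library 3 was highest in both groups. The GNLY call was lost without library 2 (log2 fold change -0.60, adjusted p = 0.171) and without library 3 (-0.91, adjusted p = 0.155). Both genes were rare. GNLY was seen in 7.51% of expressing and 5.85% of negative cells. ZEB2 was seen in 1.16% of expressing and 2.46% of negative cells. From the sums alone, few cells of a type and little RNA per cell cannot be told apart. For GNLY, the share of cells with a score was higher in the expressing group while the summed level was lower. CD8A, chosen after its values were seen, was seen in 0.193% and 1.05% of cells and did not pass (log2 fold change -0.57, adjusted p = 0.195).

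The 12 largest falls also included SOX5, a transcription factor that the study used to mark a group of B-cells, with 0.108, 0.594 and 0.612 against 0.616, 1.03 and 1.15 (log2 fold change -1.10, standard error 0.22, adjusted p = 0.000626). DHRSX, a dehydrogenase, had 1.22, 1.03 and 0.833 against 1.97, 1.97 and 2.38 (log2 fold change -0.98, adjusted p = 0.000106). ZNF407, a zinc finger protein, had 7.24, 6.31 and 5.001 against 10.6, 10.9 and 10.5 (log2 fold change -0.79, adjusted p = 1.64e-05). The groups did not overlap for these 3 genes, which were chosen by the size of their fall. The same held for GATA3, IL7R and CD8A, which did not pass. DERA, MAGI1, CYP2R1, GTDC1, MAP7, IMMP2L, MTMR12 and GRM8 fell by 0.75 to 0.95 on the log2 scale. CYP2R1 is a vitamin D hydroxylase, GRM8 a glutamate receptor and IMMP2L a mitochondrial peptidase, so these genes had no single function in common.

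The genes called lower were long. Their annotated span had a median of 131 kb (222 genes with a span), against 5.11 kb for the 824 genes called higher, 5.46 kb for the 756 of these that are not ribosomal, and 17.7 kb for all genes tested. The quartiles of the lower genes were 80.8 and 241 kb and did not reach those of the higher genes, 2.70 and 10.4 kb. FRMD8, whose listed level was the highest of the named genes, at 689, 526 and 494 against 791, 667 and 673, was also lower (log2 fold change -0.33, adjusted p = 0.0115). The FRMD8 groups overlapped, and the gene was chosen after its values were seen. Its span of 13.1 kb overlaps several annotated genes.

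Of the 19 genes that the study named for its TCRγ/δ+ T-cells, 15 were tested outside the rule. TPT1 was higher, CBLB and INPP5A, an inositol phosphatase, were lower, and 12 did not pass. Over all genes tested, 8.76% were higher and 2.46% lower. The list was drawn by the study from these samples and is not independent evidence. INPP5A lay at 18.0, 23.1 and 16.2 against 24.5, 25.7 and 22.9 (log2 fold change -0.36, limma adjusted p = 0.0272), and the groups overlapped.

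Apart from those of α/β T-cells, markers of other blood cells were low in both groups. TRBV6-5, a β-chain segment of the T-cell receptor, was seen in 77.5% of expressing and 76.9% of negative cells, and IL7R in 43.0% and 35.9%. The annotated span of TRBV6-5, 201106 bases, overlaps those of several other genes. The δ-chain gene LOC121110951 was seen in fewer cells, 31.8% and 29.98%, so the name TCRγ/δ+ rests on the gate. Whether the gate also held α/β T-cells was not tested. For the marker counts that follow, the shares over all genes were 8.76% higher and 2.46% lower. In lists this short, 0 calls do not show that the groups were alike. The α/β T-cell markers showed 0 of 5 past the threshold in the limma test and 1, CD4, at an unadjusted p under 0.05 (log2 fold change 0.77, adjusted p = 0.0810), with TRBV6-5 at a log2 fold change of -0.13 and IL7R at 0.12, and their summed level was 10.4 to 13.7 in the expressing and 11.9 to 13.9 in the negative cells. The B-cell markers summed to 0.459 to 0.697 against 0.295 to 0.577, and of 2 tested CD79B rose by 0.87 (adjusted p = 0.0320) from 0.105, 0.0820 and 0.187 to 0.189, 0.378 and 0.374. The monocyte markers summed to 0.486 to 0.850 against 0.341 to 0.919, the thrombocyte markers to 0.0541 to 0.135 against 0.0623 to 0.105, and the red cell markers to 1.38 to 1.89 against 1.70 to 2.03, and 0 of their 6 tested genes passed in limma or had an unadjusted p under 0.05. Cytolytic markers summed to 0.324 to 0.833 against 0.492 to 1.36. The eosinophil markers summed to 2.19 to 2.23 against 3.21 to 3.45, and of 4 tested DACH1 was lower (log2 fold change -1.12, adjusted p = 0.00616). LOC770612, which the study also names for eosinophils, was left out of that list and was higher. The proliferation markers reached at most 0.0680, and 0 of 2 could be tested. PPIA, which the study names for proliferating cells, was left out of that list and was higher. The negative cells of library 3 stood apart in a basophil gene. The basophil markers, of which 0 of 4 passed in limma or had an unadjusted p under 0.05, summed to 1.19 to 1.67 against 0.498, 0.607 and 7.67. CTSG stood at 0.288, 0.279 and 5.61 in the negative and 0.811, 0.648 and 0.867 in the expressing cells, and 3 cells of library 3 held 337 of its summed 360 there. CTSG was seen in 16.8% of expressing and 6.32% of negative cells. Without library 3, CTSG was higher in expressing cells (log2 fold change 1.11, adjusted p = 0.0176), and without library 2 it was lower (log2 fold change -0.67, adjusted p = 0.0321).

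The groups also differed in measures that are not gene-specific. The median number of genes detected was 1221, 1334 and 1428 in the expressing and 944, 1051.5 and 1062 in the negative cells. The ribosomal protein share of a cell had medians of 5.93, 4.29 and 6.55% against 2.31, 2.00 and 1.52%, and the mitochondrial share 5.98, 5.51 and 6.44% against 7.80, 7.31 and 8.51%. None of these groups overlapped, and each difference had the same sign in 3 of 3 libraries (exact permutation test over library pairs, two-sided, p = 0.25, the smallest p that 3 pairs can give). The values are corrected for depth, and median totals were still 2523, 2645 and 2694 against 2209, 2406.5 and 2459.

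**Figure D2:**
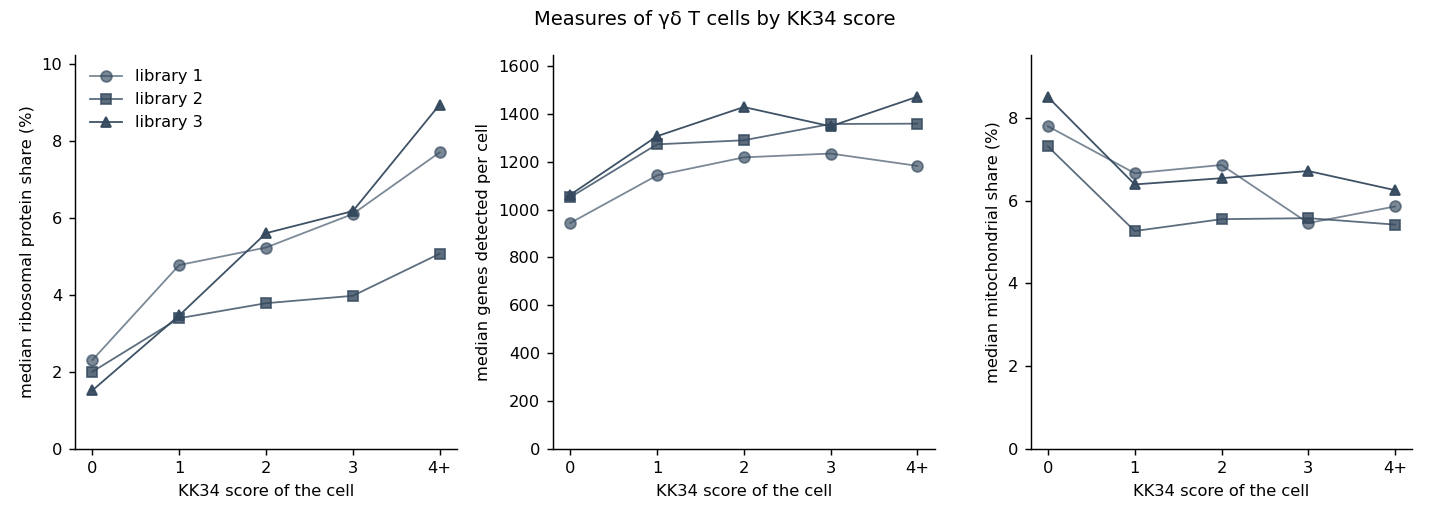
Medians over cells (y axes, from 0) of the ribosomal protein share, the number of genes detected and the mitochondrial share of gated cells with a KK34 score of 0, 1, 2, 3 or 4 and more (x axis), 1 line per library. The ribosomal share rises at every step in every library, from 1.52 to 2.31% at 0 to 5.07 to 8.94% at 4 and more, while genes detected rise and the mitochondrial share falls mostly between 0 and 1.

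Of these measures, only the ribosomal share rose at every step of KK34 in all 3 libraries. Cells with a KK34 value of 1, just outside the limit, had median ribosomal shares of 4.77, 3.39 and 3.47%, and cells with a value of 2, just inside it, had 5.23, 3.78 and 5.60%. Over values of 0, 1, 2 to 3 and 4 or more, 125 of the 9409 genes rose at every step in all 3 libraries, 57 of them ribosomal protein genes. Of those 125 genes, 61 had a mean level of at least 0.5 and were neither ribosomal nor mitochondrial. Of these 61, TPT1, MIF, LOC770612, CCDC107, EEF1B2, GATD3AL1, RACK1, ATP5L, ELOB and DRD4 had the largest log2 fold changes between the 2 groups. The grades rest on the same KK34 values as the groups. TPT1 had mean levels of 3.78 ± 0.76, 7.65 ± 1.88, 10.5 ± 3.71 and 15.3 ± 5.34 (SD, n = 3) over the grades, and MIF 0.456 ± 0.031, 0.664 ± 0.104, 1.29 ± 0.23 and 1.93 ± 0.31. CD3D rose in the same way, from 3.36 ± 0.43 to 10.2 ± 1.0. MAF was flat at 14.7 ± 1.7, 15.9 ± 1.1, 15.3 ± 1.9 and 15.7 ± 2.0. ZEB2 dropped at the first step, from 0.391 ± 0.236 to 0.0736 ± 0.104.

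Cells with 1 KK34 count were also set against the same negative cells, which both comparisons share. Of 9342 genes, 176 were higher (1.88% called) and 51 lower (0.546% called). Ribosomal protein genes made up 67 of the calls, with a median log2 fold change of 0.78 beside 1.25 above. TPT1 had 0.99 beside 1.56, CD3D 0.69 beside 1.21, S100A11 0.81 beside 1.56, LDHB 1.00 beside 1.56 and ZEB2 -1.50 beside -1.59. SOX5 had 0.06 beside -1.10 and GNLY -0.11 beside -0.83. The sum of calls was 91 without library 3.

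The gene differences were then taken between cells alike in these measures. Within 3 strata of genes detected in each library, 202 genes were higher and 89 lower, of which 199 and 73 were among the calls above. The ribosomal protein genes kept a median of 1.00 with 67 called, and TPT1 had 1.26 and CD3D 0.86. The mitochondrial protein genes had a median of -0.01 in place of -0.34, and FRMD8 had -0.05. Within strata of the ribosomal protein share, 0 genes were higher and 4 lower, with 657 at an unadjusted p under 0.05 in limma. The 824 genes called higher had a median of 0.38 in place of 0.87. The lowest stratum held only 10, 14 and 14 expressing cells in libraries 1 to 3, and each stratum had the same weight. For the ribosomal protein genes, strata of their own share narrow the difference by construction.

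As an alternative chosen after seeing the data, expressing cells were paired with unused negative cells of their library by genes detected and ribosomal share, nearest pairs first. Pairs beyond a distance of 0.25 on these standardised measures were dropped, which kept 101, 85 and 81 pairs, or 51.4% of the expressing cells. The expressing cells kept had median ribosomal shares of 4.58, 3.27 and 3.69%, below the 5.93, 4.29 and 6.55% of all expressing cells. By limma, 0 genes were then called, and 448 of 9383 had an unadjusted p under 0.05. The median log2 fold change of the 756 non-ribosomal higher genes was 0.20 in place of 0.86, and their median standard error 0.35 in place of 0.23. Of these genes, 566 kept their direction. TPT1 had 0.18 (standard error 0.13), S100A11 0.12 (0.21), MIF 0.06 (0.28), CD3D 0.12 (0.14) and JUN 0.04 (0.17). The ribosomal, translation and oxidative phosphorylation lists had medians of 0.00, -0.01 and 0.05, which for the first the pairing itself fixes. The 231 lower genes had a median of -0.17 in place of -0.51, and 178 of the 229 with a value kept their direction. MAP7 had -0.24 in place of -0.82, ZNF407 -0.31 in place of -0.79 and THEMIS -0.46 in place of -1.33. The fold changes of some other named genes were closer to those with all cells, although none passed. LDHB had 1.20 (0.40), ZEB2 -2.03 (0.42), DACH1 -1.63 (0.45), DERA -1.30 (0.40), PRKCH -1.10 (0.47), GNLY -1.09 (0.36), CD226 -0.98 (0.44), SOX5 -0.97 (0.35) and MAGI1 -0.94 (0.30). How far the number of genes detected and the ribosomal share account for the differences in other genes was not tested.

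**Figure D3:**
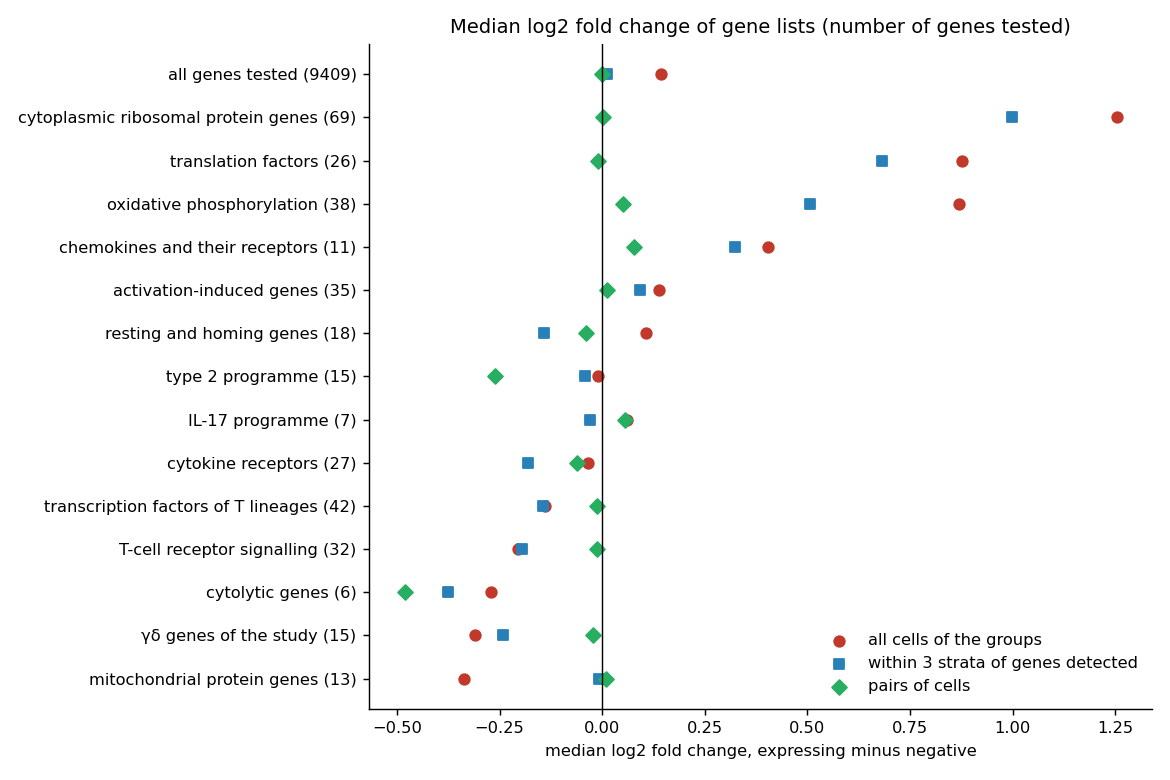
Median log2 fold change, expressing minus negative (x axis), of the tested genes of each list (number in brackets) with all cells of the groups (red circles), within 3 strata of genes detected (blue squares) and in the pairs of cells alike in genes detected and ribosomal share (green diamonds). The ribosomal, translation and oxidative phosphorylation lists stand at 0.87 to 1.25 with all cells and at -0.01 to 0.05 in the pairs, and the 6 cytolytic genes at -0.27 and -0.48.

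**Figure D4:**
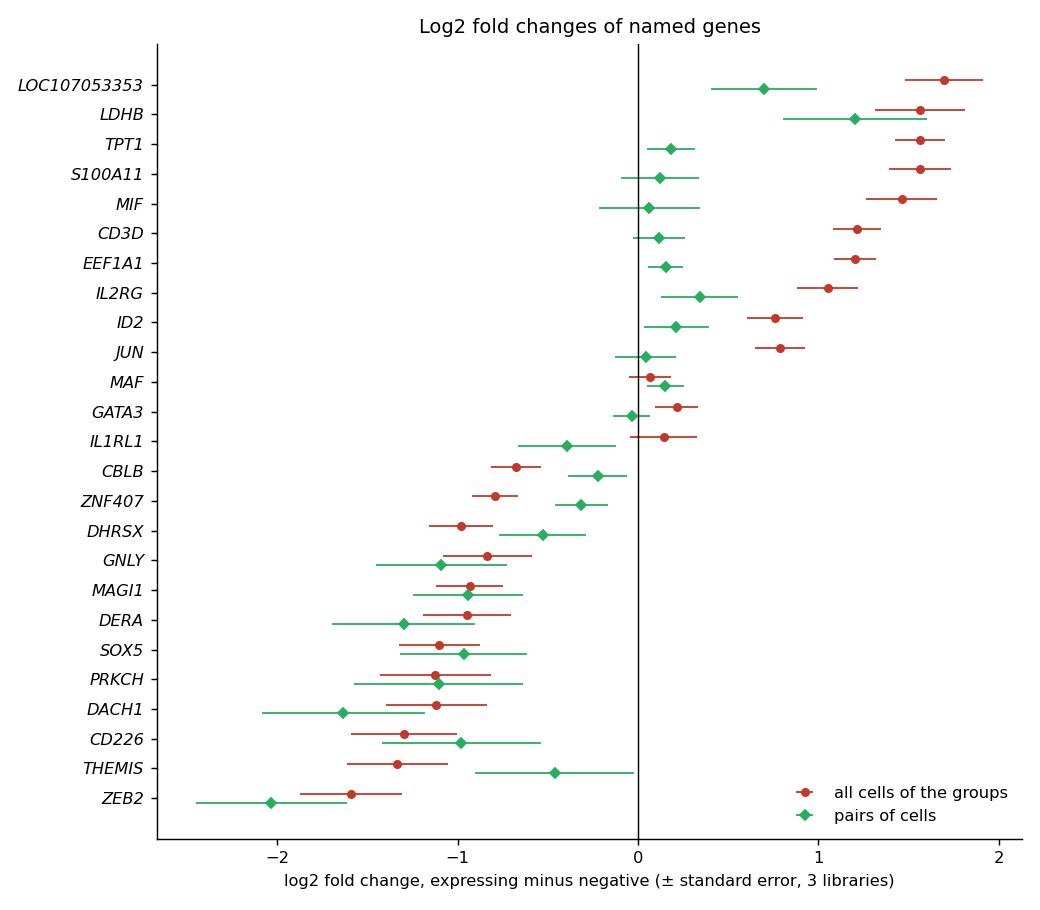
Log2 fold change with its standard error (x axis, n = 3 libraries) of 25 named genes with all cells of the groups (red circles) and in the pairs of cells (green diamonds). TPT1, S100A11, MIF, CD3D and EEF1A1 lie near 0 in the pairs, LDHB stands at 1.20, LOC107053353 at 0.70 against 1.70 with all cells, and ZEB2, DACH1, DERA, SOX5 and MAGI1 stay at or below -0.94.

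A second alternative chosen after seeing the data left out every cell with any count of GNLY, FASLG, GZMA, GZMM, ZEB2, CD226, THEMIS, SOX5 or DACH1. These cells had met the gate, and the study found GNLY in a cytolytic subcluster that it assigned to TCRγ/δ+ T-cells. Such cells made up 17.9, 17.9 and 26.9% of the expressing and 18.3, 19.7 and 26.2% of the negative cells. These shares were close, but more genes were detected in expressing cells, and the shares were not adjusted for that. By level, GNLY, ZEB2, CD226, THEMIS, SOX5 and DACH1 were called lower in the expressing cells, and none of the listed genes was called higher. In the cells that remained, 528 genes were higher and 116 lower, 508 and 110 of them among the calls above, and 68 ribosomal protein genes were still called higher. TPT1 had a log2 fold change of 1.59, CD3D of 1.30 and LDHB of 1.49, while MAF had -0.01 and IL1RL1 -0.02. CTSG was higher in expressing cells there (log2 fold change 1.01, adjusted p = 0.00809).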

How the data were processed

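The deposited table holds a score for 15271 genes in 16936 cells. Per the study's methods, the authors aligned 10x reads to GRCg7b with Cell Ranger, filtered cells and removed doublets, and corrected each library for depth with SCTransform in Seurat. The deposited scores are whole numbers and were read as such corrected counts, not as raw counts, so no count model was used. Whether the counting used strand or introns is not given in the sources used here, and 36 of the 96 named genes overlap another annotated gene. Barcodes without a prefix were taken as library 1. No doublet caller was run.

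For each library, the scores of a group were added up and expressed per 10000. A pseudocount of 0.1 was added before taking log2, and the groups were compared by limma 3.58.1 (R 4.3.3) with a trended prior and the library as block, since both profiles of a library come from 1 hen. The deviations of the 2 profiles from their group means correlated by 0.19, 0.22 and 0.12. A gene was tested if its mean level reached 0.05 in one of the groups. The Benjamini-Hochberg adjustment ran over all tested genes, with a threshold of 0.05. KK34 and the 7 gate genes stayed in the fit but out of every count. Fold changes on this scale are understated for low genes. The fit was also run on simulated profiles with planted changes. These did not copy the choice of cells by KK34 or the shifts in genes detected and ribosomal share. The effect of those on the fit was not tested.

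The members and gene lists were chosen with earlier results of these data known. Named were the marker and gate genes, and the 12 genes with the largest change in each direction. Those 12 were past the threshold, with the same sign in every library and a mean of at least 0.5, ribosomal and mitochondrial genes apart. Also named were up to 6 called members or else the 2 highest of each list. A further 10 genes were ranked by the number of libraries in which they rose over the KK34 grades, then by log2 fold change. Of 15271 symbols, 15209 were found in the RefSeq table of GRCg7b, which gave positions and spans. Promoter motifs were not analysed here. Alternatives covered the block, pseudocount, filter, scaling, KK34 limit, gate, strata of cells and each library left out. Some results of the transcription factor list are not reported here.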

Additional observations from a re-analysis of the deposited data

How the results depend on the processing

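The counts of genes called higher and lower were 824 and 231. The following settings moved either count by over 1.5 times. They gave 397 and 17 without the replicate block, 507 and 94 with no filter on low values, and 473 and 729 with median-of-ratios scaling. KK34 of 1 or more gave 681 and 144, and KK34 of 4 or more gave 279 and 187. A narrower gate gave 249 and 43. It also asked for a CD3D or CD3E score and for no score of the B-cell gene LOC396098 or the monocyte gene MMR1L4. Strata of genes detected gave 202 and 89, strata of the ribosomal share 0 and 4, and the pairs of cells 0 and 0. Leaving out cells with any count of the genes from GNLY to DACH1 listed above (the GNLY to DACH1 cells) gave 528 and 116. Leaving out library 1 gave 437 and 55, and leaving out library 3 gave 300 and 66. Without library 2 the counts were 716 and 237, both within 1.5 times. The cause of these moves was not tested. Pseudocounts of 0.5 and 0.02, a filter of 0.5, a total without ribosomal and mitochondrial genes, a mitochondrial limit of 20%, a TARP value of 2 or more and library 3 as the mean of its 2 entries kept both counts within 1.5 times. The 227 calls of the cells with a KK34 value of 1 became 57 without the block and 91 to 288 with a library left out.

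Among named genes, those called in the comparison changed sign only under KK34 of 4 or more (PIM1 -0.037) and in the pairs of cells (INPP5A 0.084, IER5 -0.051, KLF2 -0.064, FOXP1 0.0098, DRD4 -0.12, J6367-mgp10 0.0078, J6367-mgp08 0.016 and J6367-mgp11 0.0088). The sign of genes that had not passed turned more often. MAF had -0.14 with median-of-ratios scaling, -0.013 without the GNLY to DACH1 cells and -0.038 to 0.13 with a library left out. IL1RL1 had -0.053 with that scaling, and -0.077 and -0.17 within strata of the ribosomal share and of genes detected. It had -0.39 in the pairs and -0.019 without the GNLY to DACH1 cells. Its largest value was 0.58, with KK34 of 4 or more (standard error 0.28, limma adjusted p = 0.287). GATA3 had -0.059 within strata of the ribosomal share and -0.036 in the pairs, and RORA 0.14 in the pairs. IL7R had -0.085 with that scaling and -0.0009 with the narrower gate, and CD74 -0.018 with that scaling and -0.12 in the pairs. CSF3R had -0.0046 with a pseudocount of 0.5, -0.0026 with TARP of 2 or more and -0.10 within strata of the ribosomal share. It had -0.013 without the GNLY to DACH1 cells and -0.34 to 0.40 with a library left out. CTSG had 0.26 with KK34 of 4 or more, 0.29 with TARP of 2 or more and 1.01 without the GNLY to DACH1 cells. It had -0.79 to 1.11 with a library left out. GATA2 had -0.27 with KK34 of 4 or more, -0.17 with the narrower gate, -0.039 in the pairs and -0.24 to 1.02 with a library left out. With 3 libraries, low genes such as ZEB2 and THEMIS rest on few cells, which limits their precision.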
